A study of Mus musculus with 5 samples.

Results

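In IL-2-activated NKC, sites of Runx3 occupancy and of H3K4me1 were examined at 8 genes of the cytotoxic granule that lie outside the Gzme-Gzmc cluster. The genes were Prf1, Gzma, Gzmb, Gzmk, Gzmm, Srgn, Ctsc and Ctsw, out of 22350 protein-coding genes on the 19 autosomes and chromosome X. A peak was counted for a gene when it overlapped the gene or the 20 kb to either side of it by at least 1 bp. By this rule 22 of 11676 Runx3 peaks and 53 of 34204 H3K4me1 peaks belonged to the 8 genes, and no Runx3 peak belonged to more than 1 of them.

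All libraries came from splenic NKC of ICR mice that were enriched by negative selection, cultured for 7 days with 1000 u/ml of human recombinant IL-2 and positive for NKp46. The paper describes NKC from wild-type and Runx3-/- mice, sorted by FACS for DX5 after the enrichment. Its ChIP methods do not name the genotype of the cells. The Runx3 group held 2 libraries made with an in-house polyclonal antibody, the H3K4me1 group held 1 library made with a monoclonal antibody, and the NIS group held 2 libraries made with non-immune rabbit serum as control. The peaks had been called against NIS, on the joined reads of the 2 libraries for Runx3 and from the 1 library for H3K4me1. Each listed peak has only a chromosome, a start and an end. No value below therefore has a replicate error, and the depth of the libraries and the identity of the cells by marker genes cannot be read from the lists. A listed peak says that reads exceeded NIS there, and no listed peak says only that the threshold was not passed.

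Cytotoxic lymphocytes kill by releasing granules in which perforin and granzymes are stored on the proteoglycan serglycin. Perforin opens the membrane of the target cell, and granzymes, which are serine proteases, enter and cleave proteins inside it. Granzymes are made as inactive precursors from which cathepsin C removes a dipeptide. Runx3 is a transcription factor of the RUNX family that binds DNA through its Runt domain, and H3K4me1 is a histone mark found at enhancers.

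Of the transcription start sites (TSSs) of the 8 genes, those of Prf1 and Gzmb were covered by wide Runx3 peaks, and the 200 bases upstream of their RefSeq TSSs are shown because they carry the RUNX matches nearest to these starts. A RUNX match was TGTGGT on either strand, its variant TGTGGC, or one of the variants with a CG pair, which are TGCGGT and, ending in C, TGCGGC. Each stretch is from mm9, is written 5′ to 3′ on the strand of the gene and has the RUNX matches in capitals, so that ACCACA is TGTGGT read on the other strand.
Prf1 promoter (chr10:60760384-60760583, plus strand): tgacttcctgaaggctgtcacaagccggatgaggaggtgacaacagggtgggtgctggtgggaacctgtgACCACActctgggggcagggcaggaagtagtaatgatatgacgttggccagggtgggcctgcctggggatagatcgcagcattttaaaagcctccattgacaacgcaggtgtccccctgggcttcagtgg
Gzmb promoter (chr14:56881172-56881371, minus strand): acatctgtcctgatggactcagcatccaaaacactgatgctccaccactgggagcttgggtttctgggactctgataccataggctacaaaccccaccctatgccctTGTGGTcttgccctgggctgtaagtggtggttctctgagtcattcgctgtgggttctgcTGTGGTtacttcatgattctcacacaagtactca
In the Prf1 stretch the single RUNX match lay 127 bp upstream of the TSS. In the Gzmb stretch the pair of RUNX matches lay 165 and 106 bp upstream of the GENCODE TSS, with an AP-1 match (tgagtca) between them at 129 bp. The GENCODE TSS (chr14:56881097) lies downstream of the RefSeq TSS (chr14:56881171) at which this stretch ends, so the matches are nearer to the RefSeq TSS. Of 32851 mouse promoters of RefSeq, taken from 250 bp upstream to 50 bp downstream of the start, 45.2% held a RUNX match and 5.20% an AP-1 match.

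Away from these promoters, 120 bases of 1 peak per gene are shown with the same marks, as examples of how the matches are spaced. Within each peak the stretch is one with the most RUNX matches.
Prf1 downstream peak (chr10:60768872-60768991, plus strand): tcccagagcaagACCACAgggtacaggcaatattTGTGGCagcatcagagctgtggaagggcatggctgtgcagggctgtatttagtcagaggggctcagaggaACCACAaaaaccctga
Gzma upstream peak (chr13:113892198-113892317, minus strand): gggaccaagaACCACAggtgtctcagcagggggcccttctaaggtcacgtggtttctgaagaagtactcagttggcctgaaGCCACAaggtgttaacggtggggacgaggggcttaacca
Gzmb upstream peak (chr14:56885045-56885164, minus strand): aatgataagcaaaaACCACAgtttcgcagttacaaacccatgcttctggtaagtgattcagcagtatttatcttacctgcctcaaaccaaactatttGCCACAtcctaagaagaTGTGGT
Gzmk upstream peak (chr13:114017449-114017568, minus strand): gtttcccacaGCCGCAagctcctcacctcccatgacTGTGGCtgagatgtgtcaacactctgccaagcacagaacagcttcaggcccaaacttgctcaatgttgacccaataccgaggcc
Gzmm intronic peak (chr10:79154811-79154930, plus strand): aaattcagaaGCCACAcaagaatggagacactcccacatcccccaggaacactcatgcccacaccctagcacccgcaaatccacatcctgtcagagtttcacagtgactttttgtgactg
Srgn upstream peak (chr10:61995712-61995831, minus strand): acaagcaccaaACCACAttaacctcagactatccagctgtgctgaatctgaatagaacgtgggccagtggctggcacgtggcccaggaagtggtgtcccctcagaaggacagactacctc
Ctsc downstream peak (chr7:95468359-95468478, plus strand): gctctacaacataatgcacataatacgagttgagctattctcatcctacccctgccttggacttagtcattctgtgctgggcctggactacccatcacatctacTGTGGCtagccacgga
Ctsw intronic peak (chr19:5467336-5467455, minus strand): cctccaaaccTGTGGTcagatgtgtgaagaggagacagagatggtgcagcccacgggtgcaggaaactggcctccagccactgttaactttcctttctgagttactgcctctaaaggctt
The stretches downstream of Prf1 and upstream of Gzmb held 3 RUNX matches each, those of the upstream peaks of Gzma and Gzmk held 2 each, and those of Gzmm, Srgn, Ctsc and Ctsw held 1 each. The Gzmk stretch carried a match with the CG-containing variant, GCCGCA, which is TGCGGC on the other strand.

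Every one of the 8 genes had at least 1 Runx3 peak, where 41.1% of all protein-coding genes did. At least 2 Runx3 peaks were found at 7 of the 8 genes (18.1% of all genes), at least 3 at 4 genes (7.36%), at least 4 at 2 genes (3.23%) and 5 at 1 gene (at least 5 at 1.54%). Prf1 had 5 Runx3 peaks, Gzma had 4, Gzmb and Srgn had 3 each, Gzmk, Gzmm and Ctsw had 2 each, and Ctsc had 1. Both peaks of Gzmk fall in its window only through its longest annotated transcript, Gzmk-002. The Runx3 peak centre nearest to the RefSeq TSS of Gzmk lay 24568 bp away. The median of the 8 genes was 2.5 peaks, whereas that of all protein-coding genes was 0. The median window was 46.8 kb for the 8 genes and 55.4 kb for all genes, and that of Prf1, which had the most peaks, was 46.4 kb. Per 10 kb of window, Prf1 had 1.08 Runx3 peaks, Gzma 0.848 and Gzmb 0.691, while Gzmk had 0.212 and Ctsc 0.137. Neighbours in this order cannot be told apart by replicate spread, because none is available. With flanks of 5 kb, 7 of the 8 genes had a Runx3 peak (28.8% of all genes) and 7 an H3K4me1 peak (39.8%), Ctsc having neither. With flanks of 50 kb, 8 had a Runx3 peak (55.4%) and 7 an H3K4me1 peak (62.0%), and Prf1 with 10, Gzma with 8 and Gzmb with 8 Runx3 peaks again led, while Gzmm, Srgn and Ctsc gained none.

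H3K4me1 peaks were listed at 7 of the 8 genes (51.1% of all genes), and each of these 7 had at least 4 (20.6% of all genes). Prf1 and Gzma had 10 H3K4me1 peaks each, Gzmb, Gzmm and Srgn had 8 each, Gzmk had 5, Ctsw had 4 and Ctsc had 0. These peaks are counted by the window alone, and whether another gene had a nearer TSS was not computed for them. The share of the window covered by H3K4me1 was highest at Gzmm with 22.6% and Prf1 with 20.2%, and was 15.7% at Gzmb, 12.1% at Gzma, 10.9% at Ctsw, 7.38% at Srgn and 4.22% at Gzmk. The order by H3K4me1 cover differed from that by Runx3, since Gzmm came first and had only 2 Runx3 peaks.

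**Figure D1:**
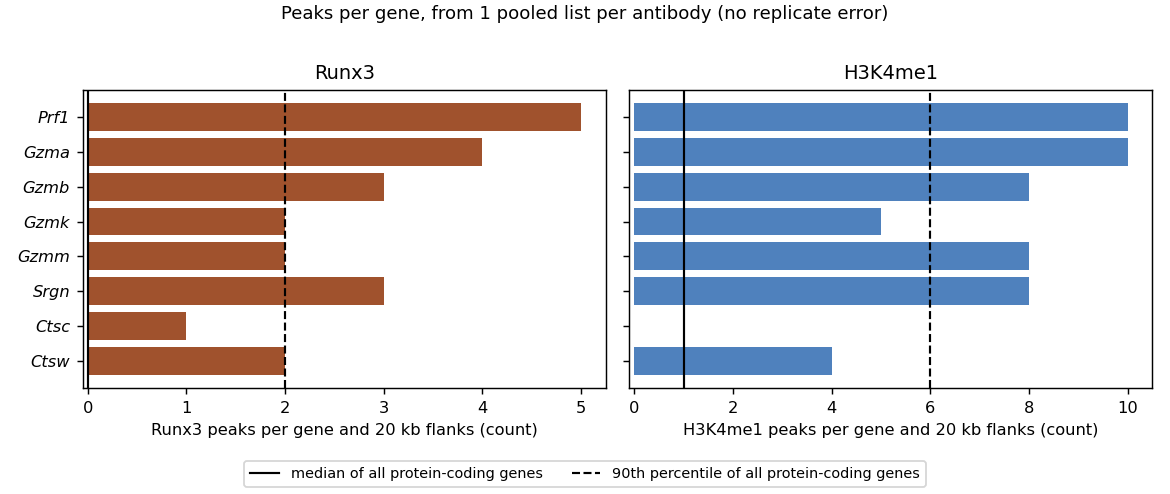
Bars show the number of Runx3 peaks (left) and H3K4me1 peaks (right) in each gene and its 20 kb flanks, from 1 list per antibody. The Runx3 list pools 2 libraries and the H3K4me1 list rests on 1. Lines mark the median and the 90th percentile over all 22350 protein-coding genes (0 and 2 for Runx3, 1 and 6 for H3K4me1), and Prf1, Gzma, Gzmb and Srgn lie beyond the 90th percentile in both panels.

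Prf1, which encodes the pore-forming protein perforin (chr10:60760584-60767011, plus strand), had more Runx3 peaks in its window than 98.5% of protein-coding genes. The widest of the 22 peaks covered its promoter (chr10:60759470-60760946), measured 1477 bp and was wider than 98.6% of all Runx3 peaks. Its centre lay 376 bp upstream of the TSS, and it held 5 RUNX matches, at 905, 818, 804, 417 and 127 bp upstream. A second wide peak of 1284 bp lay downstream of the gene (chr10:60768240-60769523), 8297 bp from the TSS, and held 6 RUNX matches, of which the nearest was 6 bp from the peak centre. A short intronic peak of 457 bp (chr10:60763691-60764147) lay 3335 bp into the gene with 1 RUNX match. None of these 3 peaks overlapped an H3K4me1 peak.

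The remaining 2 Prf1 peaks stood at the outer edges of its window and both overlapped H3K4me1. The upstream one (chr10:60740586-60741204), centred 19689 bp before the TSS, was covered by H3K4me1 over 100% of its length. The downstream one (chr10:60779993-60780825), 19825 bp after the TSS, was covered over 55.9% of its length and held 4 RUNX matches. For both, another gene had the nearer TSS, Adamts14 at 4709 bp and Rpl27a-ps1 at 7840 bp, and Rpl27a-ps1 was also nearer to the wide downstream peak, at 3688 bp. The upstream peak began 2 bp inside the 20 kb edge, and the next Runx3 peak outwards (chr10:60739650-60740273) ended 20.3 kb from the gene and was not counted.

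Gzma, which encodes the tryptase granzyme A (chr13:113884033-113891187, minus strand), had 4 Runx3 peaks, more than 96.8% of genes had, and no other protein-coding gene had the same counts of Runx3 peaks, H3K4me1 peaks and overlapping Runx3 peaks. The peak nearest its TSS (chr13:113891921-113892464, 544 bp) was centred 1005 bp upstream, just beyond the 1 kb used here for a TSS region, and held 2 RUNX matches. A second upstream peak (chr13:113894955-113895542) lay at 4061 bp, with the TSS of Gm9848 closer at 3033 bp. The other 2 lay past the 3′ end of Gzma inside the neighbouring gene Cdc20b, 9769 and 13091 bp from the nearer Gzma TSS. The first of these (chr13:113880547-113881598) was covered by H3K4me1 over 74.9% of its length and held 3 RUNX matches. The last (chr13:113877263-113878238) held 4 RUNX matches and overlapped no H3K4me1, but had H3K4me1 edges 1894 bp from its centre on one side and 544 bp on the other.

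Gzmb, which encodes granzyme B, a protease that cleaves after aspartate and activates caspases (chr14:56877693-56881097, minus strand), had 3 Runx3 peaks, more than 92.6% of genes had. Its promoter peak (chr14:56880486-56881770) was 1285 bp wide, wider than 96.6% of all Runx3 peaks. The centre of this peak lay 31 bp upstream of the GENCODE TSS and 43 bp downstream of the RefSeq TSS. Only 10.3% of this peak was covered by H3K4me1, at its upstream end. The 2 RUNX matches of the peak both stood upstream of the GENCODE TSS, while its 6 ETS matches all stood downstream of it, between 38 and 526 bp. STAT matches stood 33 bp upstream and 306 bp downstream of the GENCODE TSS. Both lay downstream of the RefSeq TSS (chr14:56881171). The second peak (chr14:56884760-56885485) lay 4025 bp upstream with 3 RUNX matches, all in its central 200 bp, and no H3K4me1. The third (chr14:56900394-56900878), 19539 bp upstream, also held 3 RUNX matches and lay between H3K4me1 peaks whose edges were 1076 and 331 bp from its centre.

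Gzmb is the granzyme closest to the Gzme-Gzmc cluster, and the nearest Runx3 peak outside its window on that side was the one at the Gzmc promoter (chr14:56853247-56853814), 23.9 kb from the gene. On the other side the nearest uncounted peak (chr14:56902995-56903787) lay 21.9 kb away, and Gzmb had the nearest protein-coding TSS to it. The Gzmb window was also the one with the least unique sequence, since 75.5% of its 40-mers occurred once in the genome, against 85.2% at Gzma and 93.1% to 97.3% at the other 6 genes. Inside the 22 Runx3 peaks this share ran from 95.4% to 100%.

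Gzmk and Gzmm encode granzymes with other cleavage preferences, a tryptase and a protease that cleaves after methionine or leucine. Gzmk (chr13:113961816-114016116, minus strand) had 2 Runx3 peaks, both placed by its longest annotated transcript. One (chr13:114017250-114017727, 478 bp) was centred 1372 bp upstream of the start of that transcript, had 17.8% of its length under H3K4me1 and held 3 RUNX matches in its central 200 bp. The other (chr13:113995422-113996061) was intronic in that transcript, held 1 RUNX match, had no H3K4me1 and lay nearer to the TSS of Esm1, at 4126 bp. The RefSeq TSS of Gzmk is further downstream, at chr13:113971173, and the Runx3 peak centre nearest to it lay 24568 bp upstream of it.

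Gzmm (chr10:79151765-79158006, plus strand) had 2 Runx3 peaks, and both overlapped H3K4me1. The upstream one (chr10:79143603-79144839) was 1237 bp wide, held 7 RUNX matches, more than 94.9% of all Runx3 peaks, and was under H3K4me1 over 48.5% of its length. Its centre lay 7544 bp from the Gzmm TSS and 719 bp from that of Cdc34. The intronic one (chr10:79154539-79155256) lay 3132 bp into the gene, with 3 RUNX matches and 41.4% of its length under H3K4me1. The Gzmm promoter itself had no Runx3 peak but was covered by an H3K4me1 peak of 3747 bp (chr10:79149985-79153731), wider than 99.75% of all H3K4me1 peaks.

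Srgn, the core protein of serglycin that holds granzymes and perforin in the granule (chr10:61956581-61990199, minus strand), had 3 Runx3 peaks. Those at 16152 bp upstream (chr10:62005886-62006816) and 5573 bp upstream (chr10:61995425-61996119) overlapped H3K4me1 over 57.8% and 67.8% of their lengths, and the farther one lay inside the gene 2510003E04Rik. The third (chr10:61970332-61970797, 466 bp) was centred 61 bp upstream of an internal start, that of transcript Srgn-201, and 19635 bp from the 5′ end of the gene. A RefSeq TSS lies beside that start (chr10:61970505), and the peak also covered the start of transcript Srgn-004 (chr10:61970686). The peak held 1 RUNX match and overlapped no H3K4me1. The annotated 5′ end of Srgn had no Runx3 peak within 1 kb.

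Cathepsin C, encoded by Ctsc (chr7:95426595-95459398, plus strand), activates granzymes by removing their amino-terminal dipeptide, and Ctsc was the only one of the 8 genes with a single Runx3 peak and the only one with no H3K4me1 peak. The Runx3 peak (chr7:95467965-95468737) was 773 bp wide, held 1 RUNX match and lay downstream of the gene, 41756 bp from its 5′ end. The H3K4me1 list had no peak over 909 kb around it (chr7:95354831-96264210), a stretch that held 3 protein-coding genes and, lying wholly inside it, no other Runx3 peak. An uncounted Runx3 peak (chr7:95354757-95355428) crossed the start of this stretch and reached the H3K4me1 peak that bounds it. That peak lay 71.2 kb upstream of Ctsc, which had the nearest protein-coding TSS to it. Of the 40-mers in the Ctsc window 93.8% were unique. The same counts, 1 Runx3 peak and no H3K4me1, were shared by 1364 other protein-coding genes.

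Ctsw, which encodes cathepsin W, a cysteine protease of cytotoxic lymphocytes (chr19:5465240-5468498, minus strand), had 2 Runx3 peaks. The intronic one (chr19:5466849-5467639) lay 1254 bp from the TSS, held 2 RUNX matches and was covered over 54.7% of its length by an H3K4me1 peak of 3296 bp (chr19:5463986-5467281), wider than 99.54% of all H3K4me1 peaks. The other (chr19:5459928-5460825) lay 8122 bp downstream of the TSS, held 4 RUNX matches and overlapped no H3K4me1. Its centre was 261 bp from the TSS of Fibp.

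**Figure D2:**
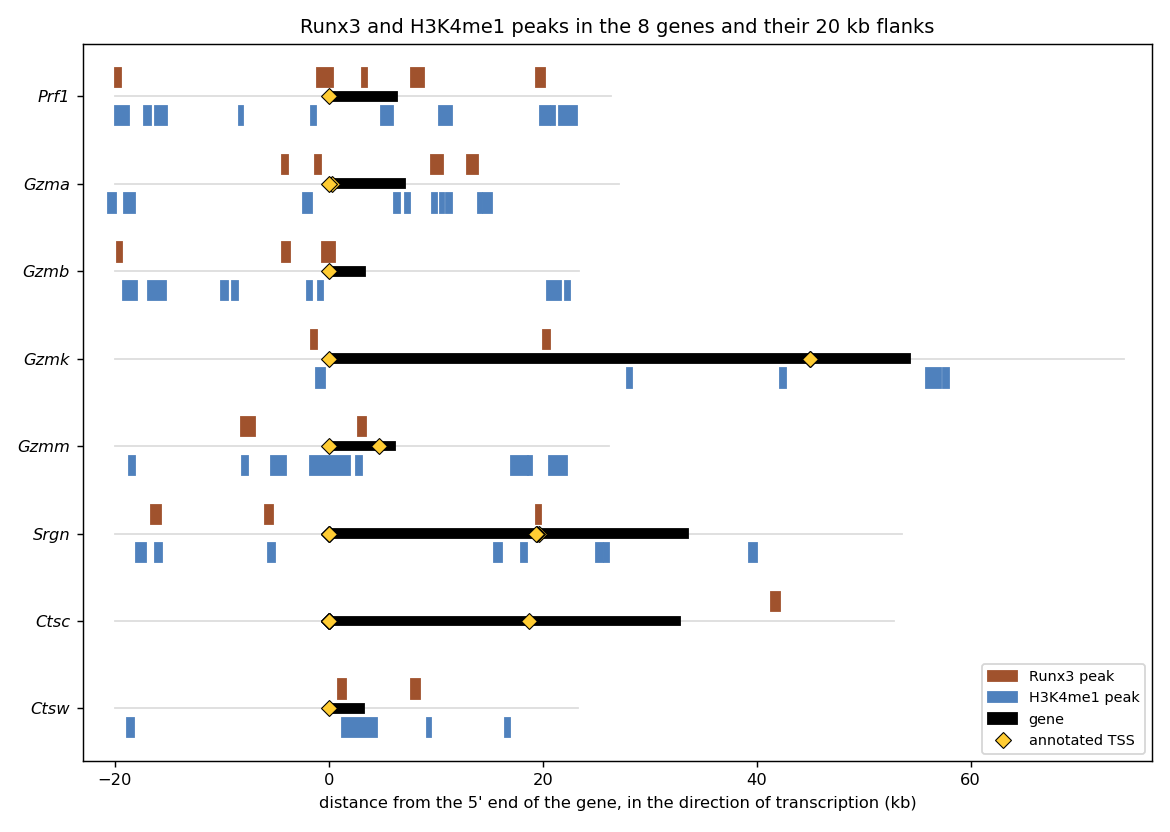
Each row is 1 gene with its 20 kb flanks (grey line), drawn in kb from the 5′ end of the gene in the direction of transcription, with Runx3 peaks above, H3K4me1 peaks below, the gene in black and annotated TSSs as diamonds. Runx3 peaks cover the TSS at Prf1 and Gzmb, cover internal starts of Srgn, and are away from the TSS at the other genes, and the Ctsc row has no H3K4me1 peak.

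By distance to an own TSS, 15 of the 22 Runx3 peaks were centred beyond 2 kb and 7 within 2 kb. The window limits how far a peak can lie, and the same share over all Runx3 peaks was not computed. By place, 11 were centred upstream of their gene, 6 downstream, 4 in an intron and 1 in an untranslated region. The upstream peaks include the promoter peaks of Prf1 and Gzmb, that of Gzmb by the GENCODE TSS but not by the RefSeq TSS. A Runx3 peak centred within 1 kb of an own TSS was found at 3 of the 8 genes, Prf1, Gzmb and Srgn, and at 13.3% of all protein-coding genes. The member gene had the nearest protein-coding TSS for 15 of the 22 peaks, and for the other 7 the nearest was that of Adamts14, Rpl27a-ps1 (2 peaks), Gm9848, Esm1, Cdc34 or Fibp. These 7 peaks are counted for their gene by the window alone. Rpl27a-ps1 carries the name of a pseudogene and is annotated as protein-coding in GENCODE M1.

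Runx3 and H3K4me1 peaks coincided at 7 of the 8 genes (20.5% of all genes had a Runx3 peak that overlapped H3K4me1), Ctsc being the exception. By peaks, 10 of the 22 overlapped an H3K4me1 peak (45.5%, 95% Wilson interval 26.9% to 65.3%, counting error only), close to the 48.4% of all Runx3 peaks. Conversely, 11 of the 53 H3K4me1 peaks overlapped a Runx3 peak (20.8%), beside 19.9% of all H3K4me1 peaks. The centre of the Runx3 peak lay inside an H3K4me1 peak for 6 of the 22. Of the 10 overlapping peaks, only the one at the upstream edge of the Prf1 window was covered in full. Another 2, the last of Gzma and the farthest of Gzmb, lay between H3K4me1 peaks within 2 kb on both sides. By position, 6 of 11 upstream peaks, 2 of 6 downstream peaks, 2 of 4 intronic peaks and 0 of 1 peak in an untranslated region overlapped H3K4me1.

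**Figure D3:**
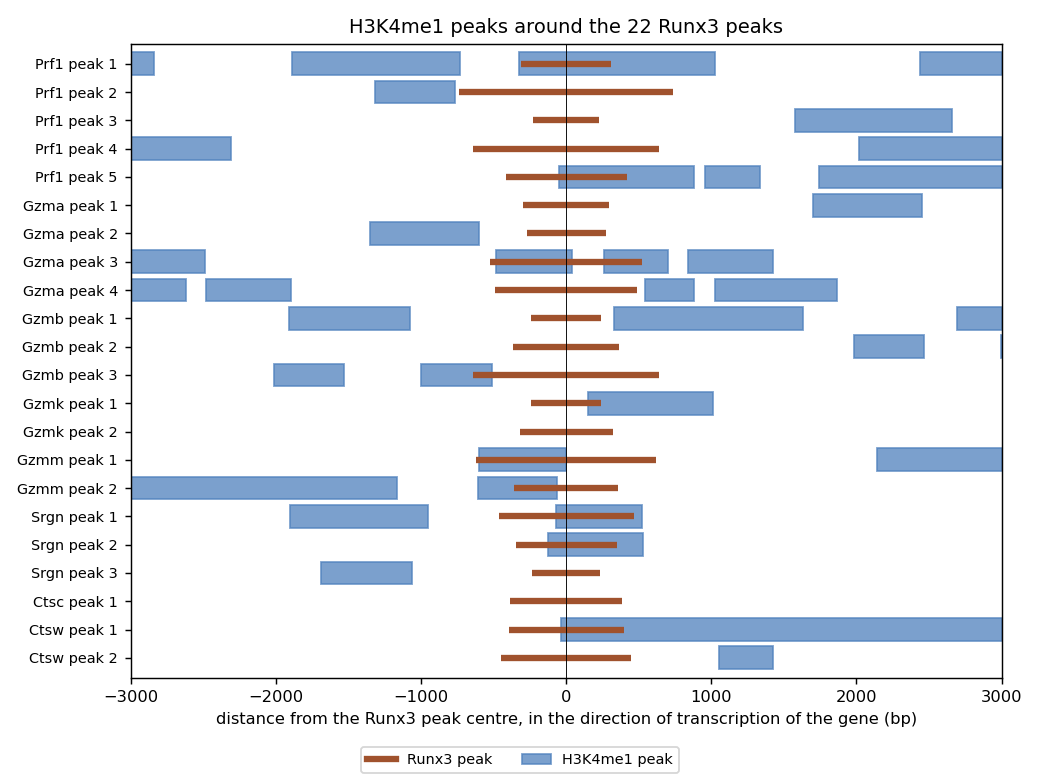
Rows are the 22 Runx3 peaks, numbered along each gene in the direction of transcription, with the distance from the Runx3 peak centre in bp on the horizontal axis, the Runx3 peak as a brown line and H3K4me1 peaks as blue boxes. In 10 rows a box touches the brown line, in 6 of them it reaches the centre, and the rows of Ctsc and of the second Gzmk peak are empty of boxes.

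Promoters were also taken from RefSeq. For 7 of the 8 genes, 9 RefSeq promoters were found in mm9 by their sequence, and Ctsw was not in the table. Runx3 peaks overlapped those of Prf1, Gzmb and the internal promoter of Srgn, and H3K4me1 overlapped that of the first Gzmm start, over all 300 of its bases. None of the 9 promoters was overlapped by both.

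A RUNX match was present in all 22 Runx3 peaks (96.0% of all Runx3 peaks), and in the central 200 bp of 16 (76.9% of all Runx3 peaks). The number of matches ran from 1 to 7 per peak with a median of 2.5, beside 3 over all Runx3 peaks. The 6 peaks without a central match were the intronic peak of Prf1, the first downstream peak of Gzma, the intronic peaks of Gzmk and Ctsw, the internal peak of Srgn and the peak of Ctsc. The 61 matches divided into 27 of TGTGGT, 29 of TGTGGC, 5 of TGCGGC and 0 of TGCGGT. As shares these were 44.3%, 47.5%, 8.20% and 0%, where all Runx3 peaks had 51.3%, 31.0%, 9.14% and 8.54%. The 5 matches of TGCGGC lay in 4 peaks, at Gzma, Gzmk, Gzmm and Ctsw, and none at Prf1 or Gzmb.

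ETS factors bind with RUNX factors at many lymphoid genes. An ETS match was GGAA preceded by A or C and followed by A or G, on either strand. It was found in all 22 peaks (91.4% of all Runx3 peaks) and in the central 200 bp of 12 (58.8% of all Runx3 peaks). The Prf1 promoter peak held the most, 9. An ETS match within 50 bp of a RUNX match occurred in 9 of 22 peaks (59.2% of all Runx3 peaks). A pair of RUNX matches within 50 bp of each other also occurred in 9 (45.6% of all Runx3 peaks). The closest RUNX pairs, 8 bp apart, were those of the Prf1 promoter peak and of the last Gzma peak. All 3 Gzmb peaks lacked an ETS match within 50 bp of a RUNX match, the smallest gaps being 236, 272 and 138 bp.

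AP-1 is a dimer of Jun and Fos proteins. AP-1 matches (TGACTCA, either strand) were found in 2 of the 22 peaks (9.09%, 95% Wilson interval 2.53% to 27.8%, beside 26.2% of all Runx3 peaks). The interval covers counting error only and treats the peaks as independent, although several share a gene. In the central 200 bp they were found in none (12.7% of all Runx3 peaks). The 2 peaks with a match were the promoter peaks of Prf1 and Gzmb. At Gzmb the AP-1 match was 17 bp from the nearer RUNX match, which made it the single peak of the 22 with an AP-1 and a RUNX match within 50 bp (12.7% of all Runx3 peaks). At Prf1 the gap was 116 bp.

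STAT factors carry the signal of the IL-2 receptor, and a STAT match was TTC and GAA with 3 bases between them. It was found in 6 of the 22 peaks (21.6% of all Runx3 peaks) and in the central 200 bp of 2 (6.66% of all Runx3 peaks). The 6 were the promoter peaks of Prf1 and Gzmb, both peaks of Gzmk and the intronic peaks of Gzmm and Ctsw. At Prf1, Gzmm and Ctsw a STAT match stood within 50 bp of a RUNX match (3 of 22 peaks, 7.84% of all), with gaps of 31, 49 and 24 bp. In the promoter peak of Gzmb and the intronic peak of Gzmk a STAT match shared bases with an ETS match. A T-box match (GGTGTGA, either strand), the core of the site of T-bet and Eomes, was found in 3 of the 22 peaks (15.7% of all Runx3 peaks). In the central 200 bp it was found in 1 (6.39% of all Runx3 peaks). The 3 peaks with a T-box match were the intronic peak of Prf1, the first downstream peak of Gzma and the farthest upstream peak of Srgn. In the intronic Prf1 peak the T-box match lay 23 bp from the peak centre, nearer than the RUNX match at 157 bp. None of these T-box matches was within 50 bp of a RUNX match (6.62% of all Runx3 peaks). A match is a string of letters and does not show that a factor was bound.

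**Figure D4:**
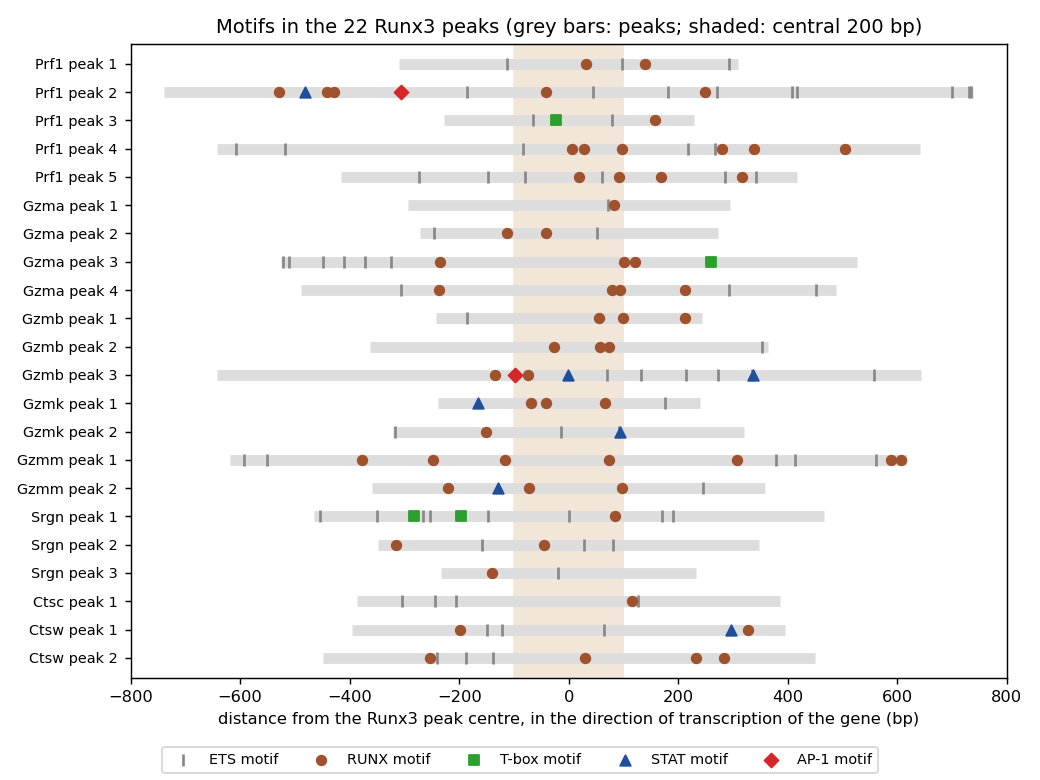
Rows are the 22 Runx3 peaks as grey bars, with the distance from the peak centre in bp along the direction of transcription and a symbol at each motif match. RUNX matches (brown) fall in every bar and in the shaded central 200 bp of 16, whereas AP-1 matches (red) fall in the promoter peaks of Prf1 and Gzmb (second row and row of the third Gzmb peak) alone.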

How the data were processed

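ChIP-seq was done on IL-2-activated splenic NKC. The authors used ELAND to align reads to mm9, the build also named in the submitters' processing notes, and discarded reads without a unique alignment. They ran MACS against NIS on the joined reads of the biological repeats, with the larger set scaled down. For H3K4me1 there was 1 library, so its list has no repeat behind it. The lists as deposited give a chromosome, a start and an end per peak (bp) and nothing on height or significance. Replicate spread could therefore not be used. The paper reports fewer uniquely aligned reads for H3K4me1 than for Runx3 in these cells, and the counts here were not adjusted for this.

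Start positions were changed from 0-based to 1-based. GENCODE M1, made for this build, gave the genes and TSSs. Windows, overlaps of at least 1 bp, distances from peak centres and motif matches on both strands were computed, and shares over all 22350 genes or 11676 Runx3 peaks were set beside the counts. No test was made. RefSeq promoters (GRCm38.p6 table) were placed in mm9 by exact match of their sequence, for 7 of the 8 genes. Unique 40-mers were counted over the whole genome, as the reads were 40 bp. The text names all 8 genes and every Runx3 peak in their windows, and of other genes those with a nearer TSS, those holding a peak, and of a list of 23 granule genes those with no Runx3 peak and the 3 with the most. Gzmc, Gzmd and Gzme of that list are named beyond this rule, after their values were seen. The 8 genes, the lists and the motifs were chosen with earlier results of these data known. The counting steps were tested on simulated data. Scripts ran under python 3.11.15 with matplotlib 3.10.9, pysam 0.24.0, numpy 2.4.6 and scipy 1.17.1, and the genome was indexed by samtools 1.23.1.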

Additional observations from a re-analysis of the deposited data

How the results depend on the processing

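With flanks of 5 kb in place of 20 kb the 8 genes held 14 Runx3 peaks and 24 H3K4me1 peaks, and with 50 kb they held 38 and 108, against 22 and 53. With 5 kb flanks Prf1 and Gzmm had 3 H3K4me1 peaks each, Gzmb had 2 and Ctsw had 1, fewer than the 4 or more found with 20 kb. Joining H3K4me1 peaks closer than 1 kb to each other left 37 in place of 53. Keeping only peaks at least as wide as the median of their list left 13 Runx3 and 23 H3K4me1 peaks. All 8 genes still had a Runx3 peak with 50 kb flanks and by the GREAT rule, whereas 7 did with 5 kb flanks, where Ctsc had none, and with the wider peaks, where Gzmk had none. Genes with a Runx3 peak at an own TSS numbered 3 within 1 kb (13.3% of all genes) and 7 within 2 kb, the exception being Ctsc. At Gzmk and Gzmm the peak within 2 kb was placed by the starts of transcripts Gzmk-002 and Gzmm-002, the latter inside the gene. By the 5′ end of the gene alone the count was 2, where Srgn was lost. With RefSeq starts, a setting chosen after seeing the data, it was 3. No share over all genes was computed for the TSS settings other than 1 kb, for the GREAT rule or for the wider peaks. Overlap with H3K4me1 changed from 10 peaks to 6 when 50% of the peak had to be covered, to 6 when the centre had to lie inside and to 16 when H3K4me1 within 1 kb sufficed. The shares of all Runx3 peaks under these other overlap rules were not computed. In the central 200 bp, 12 peaks held an ETS match in place of 22, 0 an AP-1 match in place of 2, 1 a T-box match in place of 3 and 2 a STAT match in place of 6. Most of these settings admit fewer or more positions, and the RefSeq setting takes its starts from another annotation. The cause of the changes was not tested. No paired analysis was possible because the Runx3 peaks were called on joined reads, H3K4me1 had 1 library and no test was made. Leaving out a library and a stricter score could not be run, as the lists hold no values per library and no scores.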

Other observations

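Among 23 other genes of granule content, sorting and release, 14 had a Runx3 peak within the gene or 20 kb (41.1% of all protein-coding genes), 20 had an H3K4me1 peak (51.1%), 9 had a Runx3 peak that overlapped H3K4me1 (20.5%) and 10 had one within 1 kb of an own TSS (13.3%). The shares in brackets are those of all protein-coding genes. The median of the 23 genes was 1 Runx3 peak, below the 2.5 of the 8 genes described above. Ctsd, which encodes the lysosomal protease cathepsin D, and Fasl, the ligand of the death receptor Fas, had the most with 6 each, and Igf2r, a receptor that sorts lysosomal enzymes by mannose 6-phosphate, had 5. At Ctsd 5 of the 6 and at Igf2r all 5 Runx3 peaks overlapped H3K4me1, against 1 of 6 at Fasl. No Runx3 peak was listed at Gzmf, at Cst7, an inhibitor of cathepsins, at the proteases Ctsb and Ctsh, at the granule membrane proteins Lamp1 and Lamp2, or at Stx11, Stxbp2 and Lyst, which act in granule release. The granzymes next to Gzmb had a Runx3 peak at 5 of 6 genes (41.1% of all genes), with one within 1 kb of the TSS at Gzmc, Gzmd and Gzme (3 of 6, 13.3% of all genes), but their median was 1.5 and neighbouring windows there share peaks.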
